A study of Mus musculus with 6 samples.

Results

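TGF-beta and BMP signalling was followed through 10 genes, measured in the lungs of mouse embryos late in gestation (E18.5). The genes are the ligands Tgfb1, Tgfb2, Tgfb3, Bmp4 and Bmp5, the receptor Bmpr2, the inhibitory Smad6, and Id1, Id2 and Id3, which are known as direct targets of BMP signals. They were chosen by name, and every probe on the array whose accession belongs to one of them was taken. This gave 13 probes for the 10 genes, of 41174 probes in all (18217 genes with a symbol), with 1 probe for 7 genes and 2 probes each for Bmp5, Id1 and Id2. All 13 lay well above background on all 6 arrays, so the filter on dim probes removed none of them.

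The KO group held 3 embryos of the genotype 15-1Flox/Flox and 15-2-/-, and the WT group 3 embryos of the genotype 15-1+/+ and 15-2+/+. ECAT15-2 is Dppa2 and ECAT15-1 is Dppa4, a pair of related nuclear proteins known from pluripotent cells, so that every KO embryo carried the floxed Dppa4 allele together with the Dppa2 null allele. Per the labels, the colony began with 129Sv embryonic stem cells, was bred to C57/BL6, and had 1 cross to Cre or FLPe transgenic mice of unknown strain, and both groups came from intercrosses of double heterozygotes. Total RNA of each lung was labelled with Cy3 and hybridised to 1 array of an Agilent mouse whole-genome slide. The labels do not say whether embryos of a group shared a litter.

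TGF-beta and BMP ligands bind pairs of type I and type II serine-threonine kinase receptors, which phosphorylate receptor Smads that enter the nucleus with Smad4. BMP receptors act mainly through Smad1, Smad5 and Smad9, and TGF-beta receptors through Smad2 and Smad3. In the developing lung, BMP4 is known from the tips of the growing airways, and TGF-beta signals act on the mesenchyme, on branching and on the formation of alveoli. Bmpr2 is known for its mutation in heritable pulmonary arterial hypertension.

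Several features of the arrays touch every comparison. WT arrays 1 and 2 had signal above background from 4 of 4 Y-linked genes and no Xist signal, whereas the 3 KO arrays and WT array 3 had signal from 0 of 4 (sex is unbalanced between KO and WT). KO array 3 shared a slide with WT arrays 1 and 2, KO arrays 1 and 2 shared another, and WT array 3 was alone on the third. Values on the shared slide thus set KO array 3, without Y-linked signal, against WT arrays 1 and 2, which had it. The slide is the same in that comparison, but sex is not. A fit with a term for the arrays with Y-linked signal sets the KO arrays against WT array 3 alone. The Dppa2 probe averaged -4.67 in KO and -3.45 in WT lungs, a limma difference of -1.22 (SE 0.25, adjusted p = 0.06), and whether it lies in the deleted part is not known here. The label of the tissue was checked on 10 lung epithelial markers, all of which were measured. Their summed level (as log2), to which Sftpc adds most, ran from 8.28 to 8.44 in KO and from 8.31 to 8.71 in WT lungs. Between KO and WT 0 of them passed the test, 3 differences were positive and 7 negative. The groups did not overlap in 4 of the 10, against 30.6% of all probes. Scgb1a1 was furthest from 0 (-1.73, limma adjusted p = 0.0729). Of 12 heart muscle markers, 7 fell and 0 rose, where 0.604% of all probes passed as lower. All 12 differences were negative, with a median of -1.43, and the groups did not overlap in 10 of them. Their summed level (as log2) ran from 5.13 to 5.60 in KO and from 5.91 to 6.15 in WT lungs. Myh7 adds most to that sum and did not pass (-0.29, limma adjusted p = 0.455). Of 4 tested blood and immune markers, 1 fell, the neutrophil gene S100a8 (-0.98, limma adjusted p = 0.0358). The globin gene Hba-a1 adds most to their summed level (as log2), 7.69 to 7.84 in KO and 7.54 to 7.78 in WT lungs. The other white-cell markers, Lyz2 (-1.09, limma adjusted p = 0.0748) and Ptprc (-0.59, 0.11), did not pass, and in both all KO arrays lay below all WT arrays. Of 6 markers each of lung mesenchyme, endothelium and smooth muscle, 0 passed, and the medians were 0.0022, 0.03 and -0.05. The groups did not overlap in 1, 2 and 1 of them: Fgf10 (-0.35), Pecam1 (0.57) and Tek (0.36), and Des (0.41). The part of sex, slide, heart tissue, blood cells and these other cell types in the differences below was not tested beyond the values given. In whole lungs, fewer cells of a type and less RNA per cell cannot be told apart.

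Promoter windows were at hand for 8 of the 10 genes from RefSeq (assembly GRCm38.p6, 250 bases before to 50 bases after the start), and none was for Id1 and Tgfb3. Those of the BMP target genes Id2, Id3 and Smad6 are shown because the brighter Id2 probe and Id3 had different array profiles, and that of Bmp5 because its second probe had the smallest p of the 13. Each is written 5′ to 3′ on the strand of its gene, and capitals mark the motifs found. They lie at chr12:25096043-25096342 (minus strand) for Id2, chr4:136143572-136143871 (plus strand) for Id3, chr9:64022010-64022309 (minus strand) for Smad6 and chr9:75775115-75775414 (plus strand) for Bmp5.
Id2: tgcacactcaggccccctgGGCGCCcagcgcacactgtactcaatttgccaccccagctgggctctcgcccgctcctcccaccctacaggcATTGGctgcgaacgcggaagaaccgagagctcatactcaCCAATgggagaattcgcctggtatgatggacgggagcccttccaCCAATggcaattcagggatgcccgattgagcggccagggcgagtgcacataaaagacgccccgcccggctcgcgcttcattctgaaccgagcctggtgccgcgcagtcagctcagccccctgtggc
Id3: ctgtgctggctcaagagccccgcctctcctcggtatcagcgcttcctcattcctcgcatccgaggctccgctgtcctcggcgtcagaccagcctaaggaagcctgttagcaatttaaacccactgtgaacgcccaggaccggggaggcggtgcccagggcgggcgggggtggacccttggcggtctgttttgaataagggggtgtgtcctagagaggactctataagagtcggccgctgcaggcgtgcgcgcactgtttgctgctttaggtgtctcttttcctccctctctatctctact
Smad6: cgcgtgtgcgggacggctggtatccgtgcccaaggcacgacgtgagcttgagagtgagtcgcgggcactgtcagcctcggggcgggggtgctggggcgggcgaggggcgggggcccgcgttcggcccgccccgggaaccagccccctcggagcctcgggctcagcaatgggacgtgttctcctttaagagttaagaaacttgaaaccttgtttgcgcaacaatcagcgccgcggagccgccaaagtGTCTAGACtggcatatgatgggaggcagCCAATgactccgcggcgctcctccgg
Bmp5: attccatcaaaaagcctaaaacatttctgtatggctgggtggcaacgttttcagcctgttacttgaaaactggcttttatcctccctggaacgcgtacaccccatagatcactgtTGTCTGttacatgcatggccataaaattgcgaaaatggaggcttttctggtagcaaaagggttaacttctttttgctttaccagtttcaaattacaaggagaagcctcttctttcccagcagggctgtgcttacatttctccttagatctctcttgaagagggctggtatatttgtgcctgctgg
Both strands were searched for GGCGCC, the core of BMP response elements, CAGACA, a Smad box, TATAAA and CCAAT. A palindrome known to bind Smad3 and Smad4, GTCTAGAC, was added after the windows had been read, and no motif overlapped another in the windows shown. The Id2 window held GGCGCC starting 231 bases before the start, a motif found in 11.9% of the 32851 promoters of the table, and 3 CCAAT boxes (found at least once in 37.4%). The Id3 window held none of the 5 motifs. The Smad6 window held GTCTAGAC, which 0.213% of all promoters hold, starting 4 bases before the start, and a CCAAT box after it. The Bmp5 window held 1 Smad box (21% of promoters). A match is a run of letters, not a shown site, and no match says nothing of sequence outside the window.

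Levels below are log2 intensities relative to the 75th percentile of the same array, so that 0 is that percentile and a difference of 1 is a doubling. Levels of different probes cannot be set against each other, since probes differ in brightness. Differences are KO minus WT from limma, with p-values adjusted over all 26667 probes tested and called under 0.05.

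None of the 13 probes passed the test in either direction, where 1.37% of all probes did (365 of 26667), 0.765% as higher and 0.604% as lower in KO, and 2 of the 13 had an unadjusted p under 0.05, against 24.9% of all probes. The smallest adjusted p was 0.0978, for the second Bmp5 probe. Over the 10 genes, each taken at its brightest probe, 6 differences were positive (52.7% of all probes were) and 4 negative, from -0.46 (Id3) to 0.33 (Bmp5), with a median of 0.02. The median over all probes was 0.02 as well. With arrays centred on their medians the genes split into 3 positive and 7 negative, with a median of -0.13 where that of all probes was also -0.13, and with normexp on the median signals into 3 and 7, with a median of -0.10 where that of all probes was 0.24. The median size of the difference was 0.21 for the 10 genes and 0.20 for all probes, and 4 of the 10 reached a size of 0.3, against 33.9% of all probes. The 95% confidence intervals show what 3 arrays a group could resolve. The widest was that of Smad6 (-0.73 to 0.21), and the bound furthest from 0, for Id3, was a change of 1.76-fold. The groups did not overlap in 3 of 13 probes, while they did not in 30.6% of all probes.

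**Figure D1:**
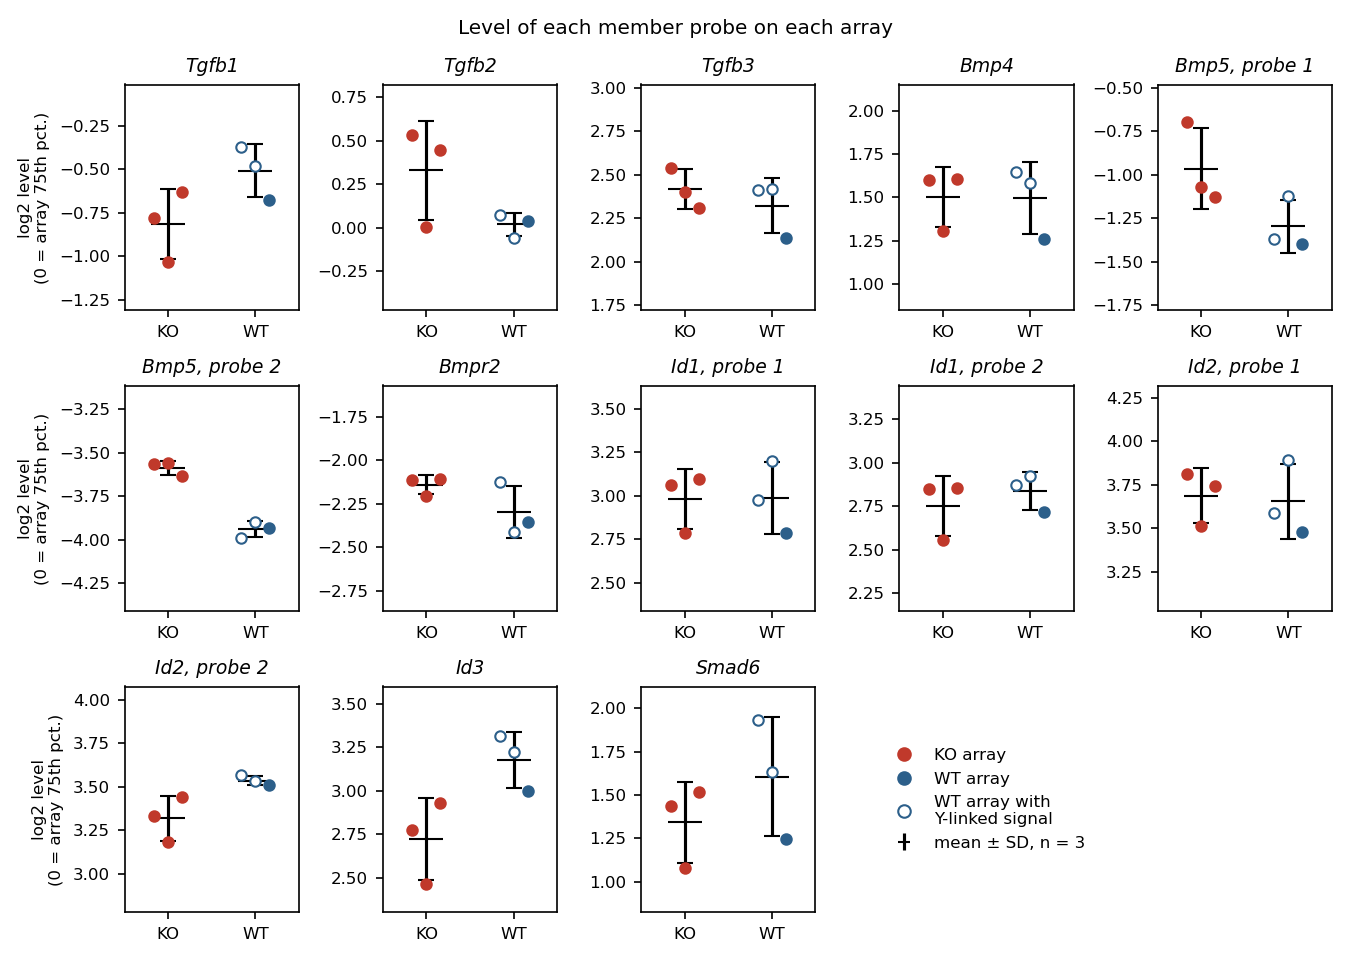
Log2 level (vertical axis, 0 is the 75th percentile of the array, every panel spans the same number of log2 units) of each of the 13 probes on the 3 KO and 3 WT arrays, with the mean and SD of each group. Open points are the WT arrays with Y-linked signal; the groups are apart in the second Bmp5 probe, the second Id2 probe and Id3.

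The 3 TGF-beta ligands had differences of either sign. Tgfb1, the isoform known from endothelial, blood and connective tissue cells, had levels of -0.78, -1.03 and -0.63 in KO lungs, against -0.37, -0.48 and -0.67 in WT lungs. The KO lungs held the lowest values, and KO array 3 lay above WT array 3, so the groups overlapped. The difference was -0.31 (SE 0.14, 95% confidence interval -0.65 to 0.03, limma adjusted p = 0.236), and with a term for the arrays with Y-linked signal it was -0.14. Ptprc, a surface protein of white blood cells, had levels of -0.66, -0.67 and -0.28 in KO lungs, against 0.26, 0.14 and -0.25 in WT lungs, and its part in the Tgfb1 and Id3 values was not tested.

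Tgfb2, known from epithelium and from heart and vessel development, had levels of 0.53, 0.0059 and 0.44 in KO lungs, against 0.074, -0.057 and 0.038 in WT lungs. KO arrays 1 and 3 lay above all WT arrays, and KO array 2 lay among them. The difference was 0.31 (SE 0.16, interval -0.06 to 0.68, limma adjusted p = 0.265). It was 0.29 with the term for Y-linked signal and 0.44 between KO array 3 and WT arrays 1 and 2 on the same slide.

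Tgfb3, whose loss in mice is known to cause cleft palate and delayed lung development, had levels of 2.54, 2.40 and 2.31 in KO lungs, against 2.41, 2.42 and 2.14 in WT lungs. The groups overlapped, and WT array 3 was the lowest. The difference was 0.10 (SE 0.13, interval -0.20 to 0.39, limma adjusted p = 0.674).

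Bmp4, the BMP ligand of the distal airway tips, had levels of 1.60, 1.30 and 1.61 in KO lungs, against 1.65, 1.58 and 1.26 in WT lungs. The ranges were almost the same. The difference was 0.0062 (SE 0.15), with an SD of 0.17 in KO and 0.21 in WT lungs (n = 3 each), and its interval ran from -0.35 to 0.36, or from 0.787-fold to 1.28-fold (limma adjusted p = 0.984).

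Bmp5, a BMP ligand known from mesenchyme and in mice from the short ear mutation, was read by both of its probes with the same sign. The brighter probe had levels of -0.70, -1.07 and -1.13 in KO lungs, against -1.37, -1.12 and -1.40 in WT lungs, and WT array 2 lay just above KO array 3. Its difference was 0.33 (SE 0.15, interval -0.03 to 0.69, limma adjusted p = 0.227), and it was 0.12 between KO array 3 and the WT arrays on its slide and 0.20 without KO array 1. The second probe had levels of -3.57, -3.56 and -3.63 in KO lungs, against -3.99, -3.90 and -3.93 in WT lungs. Here the groups were apart, and each spanned less than 0.1. Its difference was 0.35 (SE 0.10, interval 0.12 to 0.59, 1.28-fold, limma adjusted p = 0.0978), and it was positive in 17 of 17 alternatives, with an adjusted p of at least 0.0929. Its size depended on the scaling and background correction, with 0.20 under quantile normalization, 0.21 under median centring and 0.95 under normexp on the median signals. For the second probe the difference was 0.31 between KO array 3 and the WT arrays on its slide, 0.30 between KO array 3 and WT array 3, and 0.35 with the term for Y-linked signal.

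Bmpr2, the type II receptor of BMP ligands, had levels of -2.11, -2.20 and -2.11 in KO lungs, against -2.12, -2.41 and -2.36 in WT lungs. KO arrays were close together, and WT array 1 lay among them. The difference was 0.16 (SE 0.12, interval -0.12 to 0.43, limma adjusted p = 0.443), and it was positive in 18 of 18 alternatives.

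Smad6, which blocks signalling by BMP receptors and is itself induced by it, spanned 0.85 over the 6 arrays, about as much as Id3, and the other 8 genes spanned between 0.30 and 0.70. Its levels were 1.43, 1.08 and 1.52 in KO lungs, against 1.93, 1.63 and 1.25 in WT lungs. WT arrays 1 and 2 were highest, and WT array 3 lay within the KO range. The difference was -0.26 (SE 0.20, interval -0.73 to 0.21, limma adjusted p = 0.453), and with the term for Y-linked signal it was 0.0954, with the opposite sign. It was -0.0969 without WT array 1, -0.13 without KO array 2 and -0.44 without WT array 3.

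Id proteins are helix-loop-helix proteins without a DNA-binding region, which hold E proteins and other partners away from DNA. Id1 had levels of 3.07, 2.78 and 3.097 in KO lungs, against 2.98, 3.20 and 2.79 in WT lungs. The groups overlapped almost wholly, and the means were 2.98 ± 0.17 in KO and 2.99 ± 0.21 in WT lungs (SD, n = 3 each). The interval of the difference ran from -0.36 to 0.34, or from 0.781-fold to 1.27-fold (limma adjusted p = 0.984). The second Id1 probe had a difference of -0.08 (interval -0.39 to 0.22).

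Id2 had levels of 3.81, 3.51 and 3.74 in KO lungs, against 3.59, 3.89 and 3.48 in WT lungs at its brighter probe. These groups overlapped, with a difference of 0.03 (interval -0.31 to 0.38, limma adjusted p = 0.907). The second Id2 probe read 3.33, 3.18 and 3.44 in KO lungs, against 3.57, 3.53 and 3.51 in WT lungs. There the groups were apart, with a difference of -0.22 (SE 0.11, interval -0.48 to 0.04, limma adjusted p = 0.268). The probes of Id2 thus had opposite signs, and neither passed.

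Id3 had the difference furthest from 0 of the 10 genes. Its levels were 2.78, 2.47 and 2.93 in KO lungs, against 3.32, 3.22 and 3.00 in WT lungs. All KO arrays lay below all WT arrays, though KO array 3 and WT array 3 were within 0.07 of each other. The means were 2.72 ± 0.24 in KO and 3.18 ± 0.16 in WT lungs (SD, n = 3 each), and the difference was -0.46 (SE 0.16, interval -0.82 to -0.09, 1.37-fold lower, limma adjusted p = 0.136). It was negative in 18 of 18 alternatives and did not pass in any, with a smallest adjusted p of 0.0793 when arrays were centred on their medians. With the term for Y-linked signal it was -0.27, on the shared slide it was -0.34, and between KO array 3 and WT array 3 it was -0.07.

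**Figure D2:**
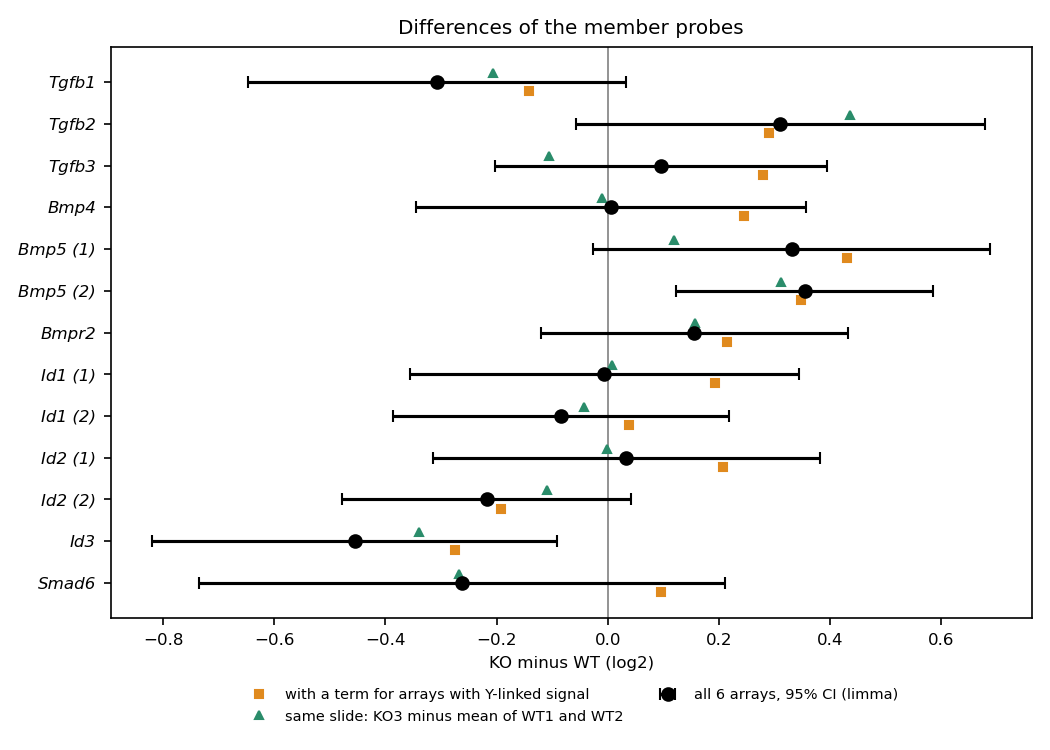
KO minus WT difference on the log2 scale (horizontal axis) for the 13 probes, as the limma estimate with its 95% confidence interval, with squares for the fit that has a term for the arrays with Y-linked signal and triangles for KO array 3 minus WT arrays 1 and 2 on the same slide. The squares set the KO arrays against WT array 3 alone. The intervals of Id3 (-0.82 to -0.09) and the second Bmp5 probe (0.12 to 0.59) do not reach 0, and neither probe passes after adjustment.

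The WT arrays differed among themselves in these genes. The mean of WT arrays 1 and 2 was above WT array 3 in 9 of 10 genes, by 0.09 (Bmpr2) to 0.54 (Smad6). Tgfb2 was the exception (-0.03). The share of all probes with this order was not counted, so the 9 of 10 is a description only. With a term for arrays 1 and 2, 8 of 10 differences were positive, where 51.5% of all probes had positive ones. Their median was 0.21, and that over all probes was 0.0094. Between KO array 3 and WT array 3, which share a number in the file names of the labels, 9 of 10 were positive. Of all probes 50.5% were, and the medians were 0.26 for the 10 genes and 0.0034 for all probes. Neither fit called any member, and in both the KO lungs are set against a single WT array.

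Array profiles were compared after each gene was centred on its own mean over the 6 arrays. Among 13927 other genes, the one closest to Id1 was Id2, with a root mean square difference of 0.0465 on the log2 scale over 6 arrays, followed by Gsk3b (0.0492) and Cemip (0.0506). Id1 was the third closest to Id2, after Dusp16 (0.0420) and Pspc1 (0.0428). This holds for the brighter Id2 probe, and at the second Id2 probe, as for Id3, all KO arrays lay below all WT arrays. Id3 lay far from both, at 0.247 from Id1 and 0.281 from Id2, and its closest genes were Was (0.0201), Wdfy4 (0.0387) and Rgs19 (0.0438). Of the other members Tgfb1 was nearest to Id3, at rank 23 with 0.0768. The closest genes to Bmp5, at its brighter probe, were Usp22 (0.0417), Ctnnd2 (0.0569) and Nuak2 (0.0575). The second Bmp5 probe was not compared in this way. With 6 arrays, small distances arise among many genes, and these ranks are a description only.

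**Figure D3:**
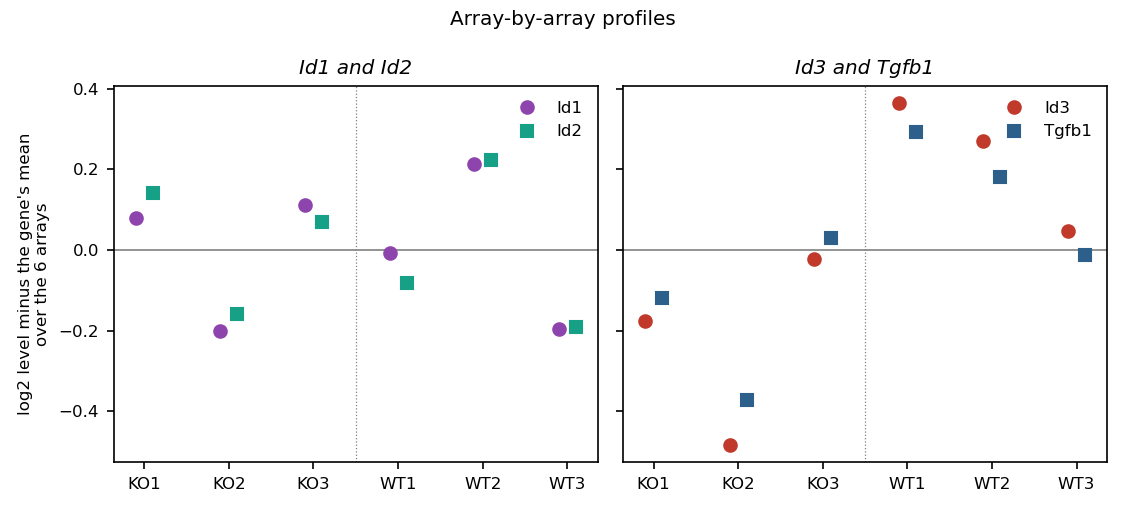
Log2 level of Id1 and Id2 (left) and of Id3 and Tgfb1 (right) on each of the 3 KO and 3 WT arrays, after subtraction of the mean of the gene over the 6 arrays. Id1 and Id2 are both lowest on KO array 2 and WT array 3 and highest on WT array 2, while Id3 and Tgfb1 are lowest on KO array 2 and highest on WT array 1.

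The pathways were counted in 7 lists with 120 genes, of which 116 were on the array and 97 passed the background filter, the 10 members among them. Of the 87 others, 1 rose and 1 fell, or 2.30%, where 1.13% of all genes with a symbol were called. The gene that fell, Fst, was well above background on 1 of 3 KO arrays and passed the filter only through its WT level. The share thus rests in part on that gene and is no result about the pathways. The groups did not overlap in 27 of the 87 (31.0%, against 30.6% of all probes). The median difference was -0.05 over the 87 genes and -0.04 over all genes with a symbol. The counts by list below include the members.

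The called genes, Thbs1 and Fst, both come from the list of extracellular antagonists and activators. Thbs1, thrombospondin, a matrix protein known to release TGF-beta from its latent form, had levels of 0.60, 0.23 and 0.27 in KO lungs, against -0.34, -0.58 and -0.59 in WT lungs. All KO arrays lay well above all WT arrays. Thbs1 rose by 0.87 (SE 0.14, interval 0.53 to 1.21, 1.83-fold, limma adjusted p = 0.0433). Its other probes differed by 1.18 (limma adjusted p = 0.0555) and 0.84 (0.0558) and did not pass. The difference lay between 0.72 and 0.96 in 18 of 18 alternatives, while the call was lost in 15 of them (adjusted p from 0.0378 to 0.836). It was 0.73 on the shared slide and 0.96 with the term for Y-linked signal.

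Fst, follistatin, which binds and blocks activins, had levels of -6.96, -6.79 and -6.10 in KO lungs, against -5.09, -5.16 and -5.51 in WT lungs. Its probe was well above background on 1 of 3 KO arrays and on 3 of 3 WT arrays, so it was tested only because of its WT level, and it is not among the probes above background on all 6 arrays. The measured difference of -1.37 (SE 0.24, limma adjusted p = 0.0481) rests on KO values of which 2 are not well above background, and its size is uncertain. The call was lost in 14 of 17 alternatives (adjusted p from 0.0165 to 0.893). The difference was -1.11 with the term for Y-linked signal, -0.98 on the shared slide and, with the opposite sign, 0.55 with normexp background correction.

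Of the ligands, 22 were tested, 0 passed, 12 had positive and 10 negative differences, and the median was 0.05. The ligands of smallest p were Inha (0.62, limma adjusted p = 0.0679) and Inhba (0.58), the alpha and beta A subunits of inhibins and activins, Gdf7 (0.39) and Inhbb (-0.76), the beta B subunit. Inhbb was -0.24 with the term for Y-linked signal and -1.02 without WT array 3, where it passed (limma adjusted p = 0.0259), as did Inha (0.0468). Of the receptors, 14 were tested and 0 passed (median 0.07). Amhr2, the receptor of anti-Müllerian hormone, came closest. Its levels were 0.013, 0.46 and 1.12 in KO lungs, against 2.05, 2.40 and 1.81 in WT lungs, so that all KO arrays lay below all WT arrays. Its difference was -1.56 (SE 0.29, limma adjusted p = 0.0534), and -1.28 with the term for Y-linked signal. It passed in 4 of 18 alternatives, among them without KO array 3 (adjusted p = 0.0228) and without WT array 3 (0.0343). Tgfbr3, the co-receptor betaglycan, differed by 0.68, Bmpr1b by -0.64 and Acvr2b, an activin receptor, by 0.39, and none passed. Without WT array 3, Tgfbr3 (limma adjusted p = 0.0479) and Bmpr1b (0.0489) passed, and with the term for Y-linked signal they were 0.48 and -0.30. In the fit without WT array 3, every WT array had Y-linked signal and no KO array had it. That fit thus cannot tell genotype from sex, for Inha, Inhbb and Amhr2 as well. Limma called 2236 of 26667 probes in it, against 365 with all arrays.

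Of 17 Smads and intracellular regulators 0 passed. At the brightest probe 13 had negative differences, where 52.7% of all probes had positive ones, and all lay between -0.26 and 0.21. The second Smurf1 probe was at -0.35, and Smad1, Smad3, Smad4, Smad5, Smurf2 and Skil had probes of both signs. The regulators of smallest p were Ski (-0.25) and Smurf2 (-0.19), which restrain Smad signals, Smad4 (-0.15, and 0.16 at its second probe), the common partner of receptor Smads, and Bambi (0.21), a pseudoreceptor. Of 19 extracellular antagonists and activators, 1 rose and 1 fell, as above, and next in p were the BMP antagonist Chrd (0.47, limma adjusted p = 0.0684) and Tsku (-0.43).

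Of 12 BMP target genes 0 passed, 8 had negative differences, and the median was -0.13. This list holds Id1, Id2, Id3 and Smad6, and Id3 had its smallest p. Among the others the smallest p belonged to the homeobox gene Msx2 (0.35, with its probe well above background on 2 of 3 KO and 3 of 3 WT arrays) and to Atoh8 (-0.27). Of 18 TGF-beta target genes 0 passed, 11 had negative differences, and the median was -0.06. The members of smallest p were Snai1, a repressor known from epithelial-mesenchymal transition (-0.39), the cell cycle inhibitors Cdkn1a (-0.55) and Cdkn2b (-0.42), and Fn1, fibronectin (-0.27). The E proteins Tcf3, Tcf4 and Tcf12, partners of the Id proteins, differed by -0.03, -0.16 and 0.0063 at the brightest probe and by 0.14, 0.15 and 0.29 at the second, and none passed.

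**Figure D4:**
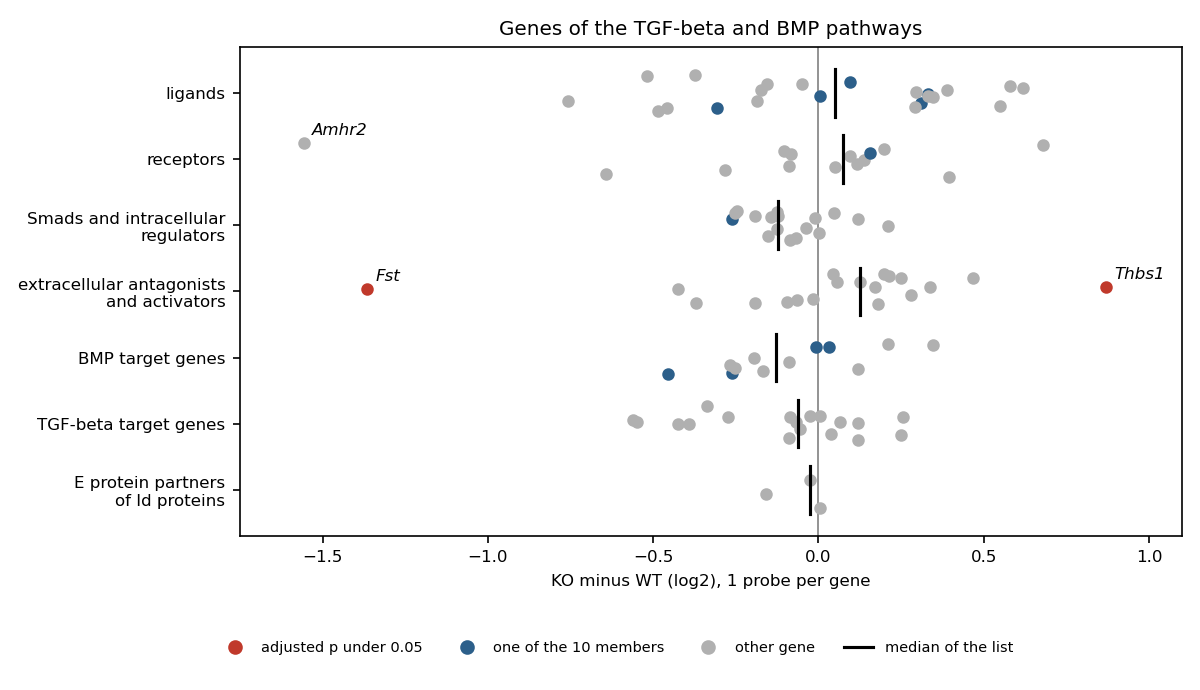
KO minus WT difference on the log2 scale (horizontal axis) of each tested gene in the 7 lists (rows), with the median of each list as a bar. Thbs1 (0.87) and Fst (-1.37, with 2 of 3 KO values not well above background) have an adjusted p under 0.05, and the 10 members lie between -0.46 and 0.33.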

How the data were processed

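Whole lungs of 3 KO and 3 WT embryos were measured on 1 array each. The deposited intensity of a spot comes from Feature Extraction 10.7.3.1 (Agilent) and is, per the file headers, background-subtracted and spatially detrended within its array, with no scaling between arrays. GeneSpring GX11 was used by the authors, per the series' design text. The 75th percentile of an array's intensities ranged from 1521.6 to 1687.9, and 63.3% to 68.8% of the 41174 probes per array lay well above background. The authors also deposited log2 values for the same probes, with scaling and centring unstated. They lay close to quantile-normalized log2 intensities relative to the WT median, with a median absolute difference of 0.000788 or less per array. The correlation per array ran from 0.992 to 0.997, so a part of the probes differed by more. The authors' column medians were 0 for the WT arrays and 0.0108, -0.00703 and -0.000876 for KO arrays 1 to 3. Their values served as an alternative.

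Between 77 and 110 spots per array with an outlier flag were left out, and 0 were saturated. Log2 intensities were set relative to the 75th percentile of the array, and spots of a probe were averaged. A probe was kept if every array of KO, or every array of WT, had it well above background (26667 probes). Accessions received symbols through RefSeq genes of GRCm38.p6 (26690 of 41174 probes), an assembly other than the mm9 of the array design, so that only the promoter windows, taken from RefSeq, have coordinates. KO and WT were compared by linear models without covariate (lmFit, then eBayes, of limma 3.58.1 under R 4.3.3; two-sided), with Benjamini-Hochberg adjustment over all probes; the script was tested on simulated data. The number of arrays limits the precision. The p-values set each difference against the spread between embryos within the groups, in which slide and, among the WT embryos, sex are mixed.

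Named pathway genes were those called, and the 4 of smallest p in each list, at the brightest probe of the gene. The members and lists were chosen with earlier results of these data known. The 18 alternatives changed the background correction, scaling, source, filter, probes per gene, blocks or arrays used.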

Additional observations from a re-analysis of the deposited data

How the results depend on the processing

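Limma called 0 of the 13 member probes in every alternative, with 0 to 4 at an unadjusted p under 0.05 (2 as reported). The count of all called probes, 365, was 33 with no filter, 28 with the slide as a block, 24 with a term for arrays with Y-linked signal, 79 with the replicate block (same-numbered embryos share only a number: their deviations correlated at -0.016, 0.032 and 0.020 over probes) and 40 to 2236 with 1 array left out, the extremes being without WT arrays 1 and 3. Limma called 0 with the file number as a block (1368 at an unadjusted p under 0.05), without the arrays with Y-linked signal (1837) and with normexp on the median signals (1786), which was chosen after seeing the data because the files lack mean signals. The split of 204 higher and 161 lower became 79 and 176 with quantile normalization, 78 and 173 with the authors' values and 108 and 282 with median centring, which moved the median of all probes to -0.13 (normexp: 0.24). The median of the 10 members moved to 0.26 with the file number and to 0.21 with the term, or without the arrays concerned.

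Signs turned as follows. With quantile normalization Id1 was 0.0623 and Tcf3 0.0323, and with the authors' values Id1 was 0.0618 and Tcf3 0.0325. With median centring Tgfb3 was -0.0538, Bmp4 -0.14, Id2 -0.12 and Tcf12 -0.14. With the slide as a block Tgfb3 was -0.11, Bmp4 -0.011, Id1 0.0084 and Id2 -0.0013. With the file number as a block Tgfb1 was 0.0418, Id1 0.31, Smad6 0.27, Bambi -0.0642, Atoh8 0.047, Cdkn2b 0.016 and Tcf3 0.0731. With the term, as without its arrays, Id1 was 0.19, Smad6 0.0954, Atoh8 0.0701, Tcf3 0.14 and Tcf12 -0.026. With normexp Tgfb3 was -0.0834, Bmp4 -0.12, Id2 -0.0574, Bmpr1b 0.40, Fst 0.55, Tsku 0.64 and Tcf12 -0.14. With 1 array left out, Tgfb1 ran from -0.40 to -0.20, Tgfb2 from 0.21 to 0.47, Tgfb3 from 0.0031 to 0.15, Bmp5 from 0.20 to 0.42, Bmpr2 from 0.099 to 0.24, Id3 from -0.56 to -0.33, Smad6 from -0.44 to -0.0969, Bmp4 from -0.11 to 0.11, Id1 from -0.11 to 0.0992, Id2 from -0.0536 to 0.15, Tcf3 from -0.16 to 0.0746 and Tcf12 from -0.0374 to 0.0339. The cause was not tested. In all, 544 of 628 single-gene values kept sign and side of the threshold, 29 lost the call (15 of Thbs1, 14 of Fst, 1 of which also turned sign), 8 gained it and 48 turned sign. The planned normexp on mean signals was not run. The member probes were well above background on all 6 arrays, and the number of arrays limits the precision.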
